A study of Mus musculus with 18 samples.

Results

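The 10 genes described here belong to the NRF2 pathway of the oxidative stress response: Nfe2l2, Keap1, Sqstm1, Hmox1, Nqo1, Gclc, Gclm, Txnrd1, Srxn1 and Prdx1. They were taken by symbol from a table of 62197 rows, each symbol matched 1 row, and 10 of 10 passed the filter on low values that left 17875 genes for testing. Expression was measured by RNA sequencing of bone marrow-derived dendritic cells (DCs) of mice, grown for 10 days with granulocyte-macrophage colony-stimulating factor. The 18 libraries form 6 conditions of 3 libraries each, and their depth, as whole reads recovered from the deposited values, ranged from 33027230 to 61300021.

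The genotypes were wild-type (WT) for cPLA2, the phospholipase encoded by Pla2g4a, and a conditional knockout (KO) in which Cre expressed from the Itgax (CD11c) promoter deletes Pla2g4a, so that cells without Itgax expression may keep the gene. Nonconfined WT and KO cells were untreated and collected at the end of the culture. Confined WT and KO cells were held under a roof at a height of 3 µm, which flattens them, and collected 4 h after confinement. LPS-treated WT and KO cells were not confined, received lipopolysaccharide at 100 ng per ml for 30 min by the labels, were washed and were collected the next day. The methods of the study give a slightly shorter exposure. The 3 treatments therefore differ in handling and in time of collection, which cannot be told apart from confinement or LPS in these libraries. The study calls the libraries biological replicates, but the labels do not say whether those of a condition came from separate mice or cultures, so the p-values measure the spread between these libraries. Unless stated otherwise, that spread was estimated once per gene within conditions over all 18 libraries. LPS-treated libraries therefore also enter the SE and p-values of comparisons without LPS.

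NRF2, the protein of Nfe2l2, is a transcription factor that pairs with small MAF proteins and binds antioxidant response elements near genes for glutathione synthesis, thioredoxin recycling, quinone reduction and heme breakdown. In unstressed cells KEAP1 holds NRF2 and passes it to a CUL3 ubiquitin ligase for degradation, electrophiles and oxidants modify KEAP1 and release NRF2, and p62, the protein of Sqstm1, can draw KEAP1 into autophagy. NRF2 is therefore controlled largely at the protein level, which RNA does not show, and in DCs and macrophages the pathway is known for limiting oxidative and inflammatory responses.

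The gene deleted in the knockout was read first, as a check of the labels. Pla2g4a had 697, 686 and 770.4 normalized counts, reads divided by a library size factor, in the nonconfined WT libraries and 548, 542 and 533 in the nonconfined KO libraries. In confined cells it had 1369, 1430.3 and 1321 in WT and 923, 871 and 919.5 in KO libraries. It was lower in each KO library than in each WT library of these treatments, without overlap, but a transcript remained in the KO. In LPS-treated cells the libraries labelled WT had 1005, 969 and 967, and those labelled KO had 1065, 1032 and 1028, which lie above them. Ddx3y, a gene of the Y chromosome, had 3.05, 0 and 1.97 normalized counts in nonconfined WT, 0, 1.72 and 2.37 in confined WT, 949, 981 and 874 in nonconfined KO and 1036, 920.2 and 948 in confined KO libraries. The WT libraries thus carried next to no Y-linked transcript and the KO libraries carried it, so that genotype and sex of the donors cannot be told apart in nonconfined and confined cells. In the LPS-treated libraries Ddx3y stood at 1271, 0 and 662 for replicates 1, 2 and 3 labelled WT and at 2.12, 1476 and 783 for replicates 1, 2 and 3 labelled KO. Replicates 1 and 3 labelled WT and replicate 1 labelled KO go against the nonconfined and confined libraries of the same label, and the genotype labels of the LPS-treated libraries are therefore in doubt. LPS-treated libraries are called by their label below, the 6 of them are set together against other treatments, and no library was moved to another group.

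The cell type was read from 7 DC markers, with Cd74, the chaperone of MHC class II, the most abundant. Their summed normalized counts were 491150.2, 466306 and 470716 in nonconfined WT, 596802, 557375 and 587172 in nonconfined KO, 444272, 413818 and 424508 in confined WT and 416522, 402186 and 417232 in confined KO libraries. None of these 7 genes, and no listed marker of another cell type, was at 0 in all libraries. In bulk RNA fewer cells of a type and less RNA per cell cannot be told apart.

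Confinement was compared with the nonconfined state within each genotype to ask whether the 10 genes differ between confined and nonconfined cells, handling and time of collection included. In WT cells 10 of 10 genes rose with confinement, against 28.2% of all tested genes called higher, and 8 of 10 also passed a log2 fold change of 1, against 11.4% of all tested genes. In KO cells 10 of 10 rose, against 22.8%, and 8 of 10 passed the second rule, against 6.43%. The median log2 fold change of the 10 genes was 2.54 in WT and 2.11 in KO cells, beside -0.01 and 0.01 over all tested genes. Hmox1 had the largest fold change of the 10 in both genotypes, and Nfe2l2 and Keap1 the smallest ones. Whether confinement acted differently in the 2 genotypes was tested as the change in KO minus the change in WT: 1 of 10 genes was called higher, against 10.2% of all tested genes, and 3 of 10 lower, against 15.6%, which became 3 higher and 2 lower with all libraries at the same total. A call needed an adjusted p under 0.05 from limma over the 17875 genes of each comparison, in two-sided tests on log2(normalized count + 1).

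Among the regulators, Nfe2l2 (chr2:75505857-75535010, GRCm39) had 3724, 3851 and 3705 normalized counts in nonconfined WT and 6769, 6550.5 and 6835 in confined WT libraries. In KO cells it had 3451, 3618 and 3340.4 without and 4279, 3629.8 and 3949 with confinement. Confined WT libraries stood well above the nonconfined libraries of both genotypes and the confined KO libraries, and the confined KO libraries lay only slightly above the nonconfined KO libraries, the lowest of them at 3629.8 beside a highest nonconfined value of 3618. The change was a log2 fold change of 0.84 ± 0.06 (SE) and adjusted p = 2.70e-10 from limma in WT. In KO it was a log2 fold change of 0.19 ± 0.06 (SE) and adjusted p = 0.0211 from limma. The latter call was lost without nonconfined KO replicate 1 or 3 or confined KO replicate 1 or 3, with log2 fold changes of 0.18, 0.16, 0.13 and 0.18, and when all libraries were brought to 1 total (0.15). The difference between the genotypes was -0.65 ± 0.09 on the log2 scale, with adjusted p = 8.25e-06 from limma.

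Keap1 (chr9:21141026-21150628), whose protein holds NRF2 back, had 829.8, 707 and 710.5 in nonconfined and 945, 990.4 and 979.6 in confined WT libraries, and 657, 748 and 739 in nonconfined and 909, 849.9 and 801 in confined KO libraries. Confined libraries were above the nonconfined libraries of their own genotype without overlap, by small steps. Confinement gave a log2 fold change of 0.38 ± 0.07 (SE) and adjusted p = 8.90e-05 from limma in WT and a log2 fold change of 0.26 ± 0.07 (SE) and adjusted p = 0.00498 from limma in KO. The WT call was lost when all libraries were brought to 1 total (0.15, adjusted p = 0.0665 from limma). Sqstm1 (chr11:50090193-50101647), the p62 gene and itself an NRF2 target, rose further: it had 9584, 9143 and 9296 in nonconfined and 56628, 53594 and 54791 in confined WT libraries. In KO libraries it had 11142, 10869 and 11054 without and 42389.7, 39635 and 42298 with confinement. The KO libraries started above the WT libraries and ended below them, with no overlap in either state. The change was a log2 fold change of 2.56 ± 0.11 (SE) and adjusted p = 1.91e-14 from limma in WT, a log2 fold change of 1.91 ± 0.11 (SE) and adjusted p = 8.27e-12 from limma in KO. It was smaller in KO than in WT by the test of the difference (-0.65 ± 0.16 on the log2 scale, adjusted p = 0.00341 from limma).

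Of the heme and quinone enzymes, Hmox1 (chr8:75820245-75827220) encodes heme oxygenase, which opens heme to biliverdin, carbon monoxide and iron. It had 3358, 3129 and 3167 normalized counts in nonconfined and 67403, 62709 and 64329 in confined WT libraries, a ratio of means of 20.1. KO libraries had 4104, 3808 and 3929.5 without and 103018, 95059 and 100385 with confinement, a ratio of 25.2. Confined KO libraries held the highest Hmox1 values of the whole series, and no library of 1 condition overlapped with those of another among these 4. The change was a log2 fold change of 4.33 ± 0.12 (SE) and adjusted p = 1.40e-17 from limma in WT and a log2 fold change of 4.66 ± 0.12 (SE) and adjusted p = 3.30e-17 from limma in KO. The changes in the 2 genotypes were 0.32 ± 0.17 apart on the log2 scale, which did not pass the test (adjusted p = 0.188 from limma), but passed it in a fit of only the 4 conditions compared (adjusted p = 0.000585 from limma) and with the same total per library (adjusted p = 0.0173 from limma). Nqo1 (chr8:108114857-108129905), a quinone reductase and a customary readout of NRF2, had 344, 279.7 and 312 in nonconfined and 2131, 2061 and 2023 in confined WT libraries, and 433, 395 and 398 and 2623, 2560.3 and 2618 in the KO libraries. Again the KO libraries were above the WT libraries in each state, and confined above nonconfined, without overlap. Nqo1 gave a log2 fold change of 2.73 ± 0.13 (SE) and adjusted p = 7.58e-14 from limma in WT and a log2 fold change of 2.67 ± 0.13 (SE) and adjusted p = 3.79e-13 from limma in KO. The test of the difference between genotypes gave -0.06 ± 0.18 and adjusted p = 0.841 from limma.

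**Figure D1:**
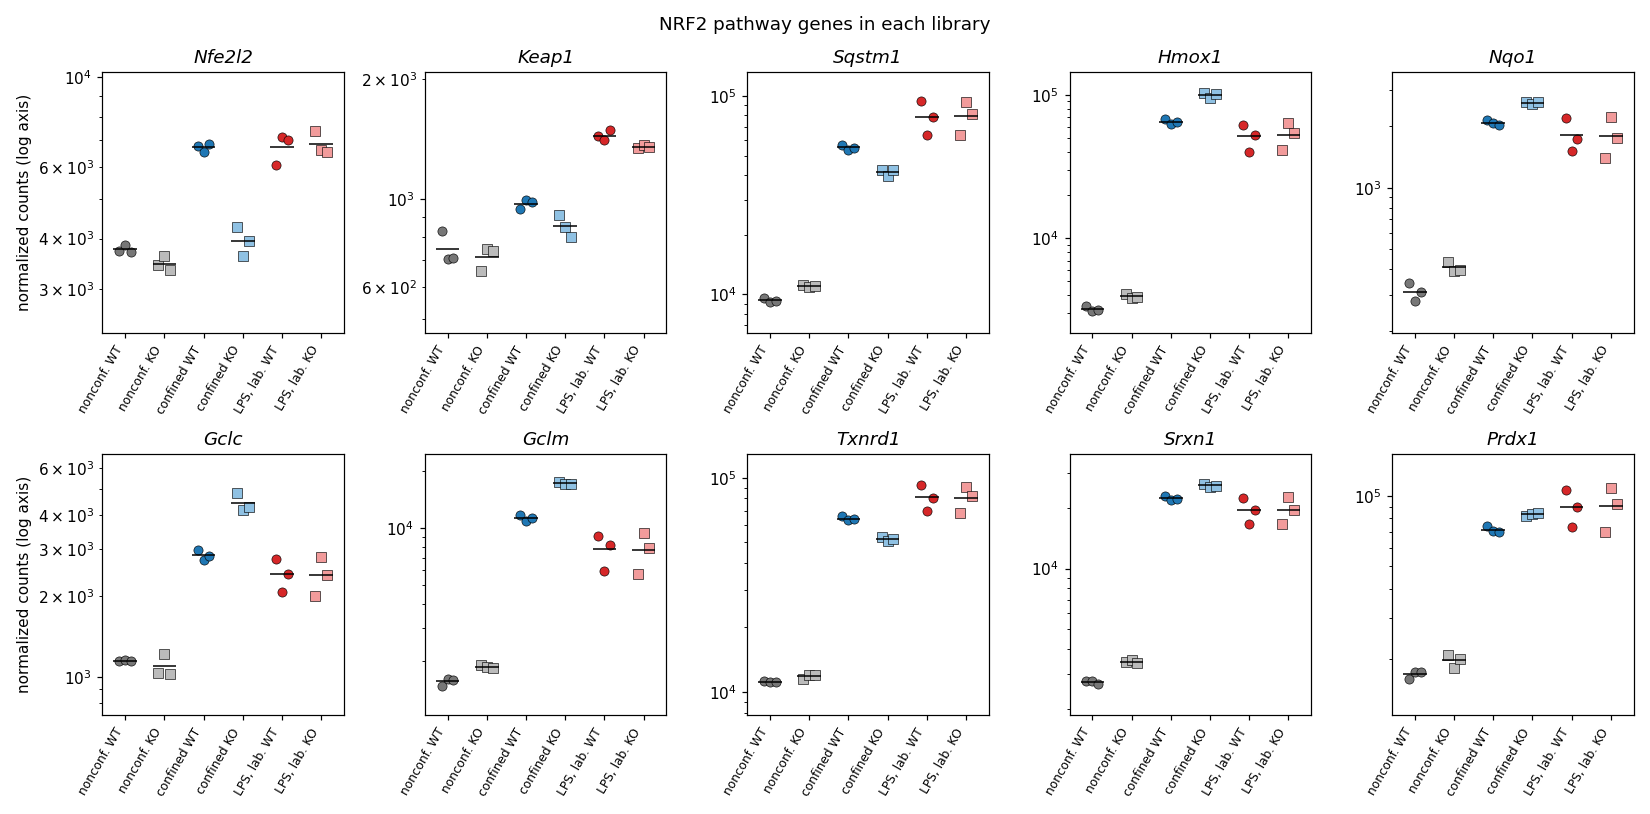
Normalized counts on a log axis of the 10 genes in the 18 libraries, 1 panel per gene, with points for libraries and a bar at the mean of the 3 libraries of a condition. Confined and LPS-treated libraries sit above nonconfined ones for the target genes, from 3129 in a nonconfined WT library to 103018 in a confined KO library for Hmox1, while Keap1 stays between 657 and 1488; the genotype labels (lab.) of LPS-treated libraries are in doubt.

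Gclc and Gclm encode the catalytic and the modifier subunit of glutamate-cysteine ligase, which makes the first product on the way to glutathione. Gclc (chr9:77661812-77701771) had 1142, 1150.3 and 1146 normalized counts in nonconfined and 2974, 2730.3 and 2820.3 in confined WT libraries. In KO libraries it had 1031, 1219 and 1028 without and 4820.0, 4189.6 and 4282 with confinement. The nonconfined libraries of the genotypes overlapped, and the confined KO libraries lay above each confined WT library. Confinement gave a log2 fold change of 1.31 ± 0.10 (SE) and adjusted p = 4.00e-10 from limma in WT and a log2 fold change of 2.02 ± 0.10 (SE) and adjusted p = 9.09e-13 from limma in KO. Gclc was the 1 gene of the 10 that rose further in KO than in WT cells by the test of the difference (0.71 ± 0.14, adjusted p = 0.000706 from limma). Gclm (chr3:122039206-122060864) had 1479, 1609.9 and 1594 in nonconfined and 11697, 10866 and 11313 in confined WT libraries, and 1907, 1854 and 1832 and 17571, 17104 and 17081 in the KO libraries. Its KO libraries were the higher ones in both states, without overlap. Gclm gave a log2 fold change of 2.85 ± 0.13 (SE) and adjusted p = 5.82e-14 from limma in WT and a log2 fold change of 3.21 ± 0.13 (SE) and adjusted p = 3.17e-14 from limma in KO. The difference of 0.35 ± 0.19 between the genotypes had adjusted p = 0.177 from limma, and passed the threshold in a fit of the 4 conditions alone (adjusted p = 0.000203 from limma) and with the same total per library (adjusted p = 0.0204 from limma).

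In the thioredoxin and peroxiredoxin system, Txnrd1 (chr10:82669785-82733558) encodes the cytosolic thioredoxin reductase. It had 11277, 11110.0 and 11105 in nonconfined and 66167, 63209 and 64065 in confined WT libraries, and 11429, 11954 and 11989 and 52999, 50389 and 51946 in the KO libraries. As for Sqstm1, confined KO libraries ended below confined WT libraries, without overlap. Txnrd1 gave a log2 fold change of 2.53 ± 0.08 (SE) and adjusted p = 1.51e-16 from limma in WT and a log2 fold change of 2.13 ± 0.08 (SE) and adjusted p = 1.24e-14 from limma in KO. The change was smaller in KO (-0.40 ± 0.12 on the log2 scale, adjusted p = 0.0150 from limma), a call lost with the same total per library (-0.21, adjusted p = 0.134 from limma). Srxn1 (chr2:151947444-151953295), sulfiredoxin, restores overoxidized peroxiredoxins. It had 2758, 2752 and 2665 in nonconfined and 23043, 21889 and 22154 in confined WT libraries, and 3415, 3509 and 3377 and 26472, 25309 and 25866 in the KO libraries. The 4 conditions formed 4 separate steps, with KO above WT in each state. Srxn1 gave a log2 fold change of 3.04 ± 0.09 (SE) and adjusted p = 1.66e-17 from limma in WT and a log2 fold change of 2.91 ± 0.09 (SE) and adjusted p = 2.24e-16 from limma in KO. Prdx1 (chr4:116542794-116558017), a peroxiredoxin that reduces hydrogen peroxide, had 16332, 17484 and 17542 in nonconfined and 74396, 70427 and 69714 in confined WT libraries, and 20796, 18275 and 20004 and 82352, 83782 and 84435 in the KO libraries. It too was higher in confined than in nonconfined libraries and higher in KO than in WT libraries, without overlap. Prdx1 gave a log2 fold change of 2.06 ± 0.12 (SE) and adjusted p = 1.98e-12 from limma in WT and a log2 fold change of 2.09 ± 0.12 (SE) and adjusted p = 4.84e-12 from limma in KO. For Srxn1, Prdx1 and Keap1 the differences between the genotypes were -0.12 ± 0.12, 0.02 ± 0.16 and -0.12 ± 0.10 on the log2 scale, none past the threshold (adjusted p = 0.521, 0.940 and 0.410 from limma).

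**Figure D2:**
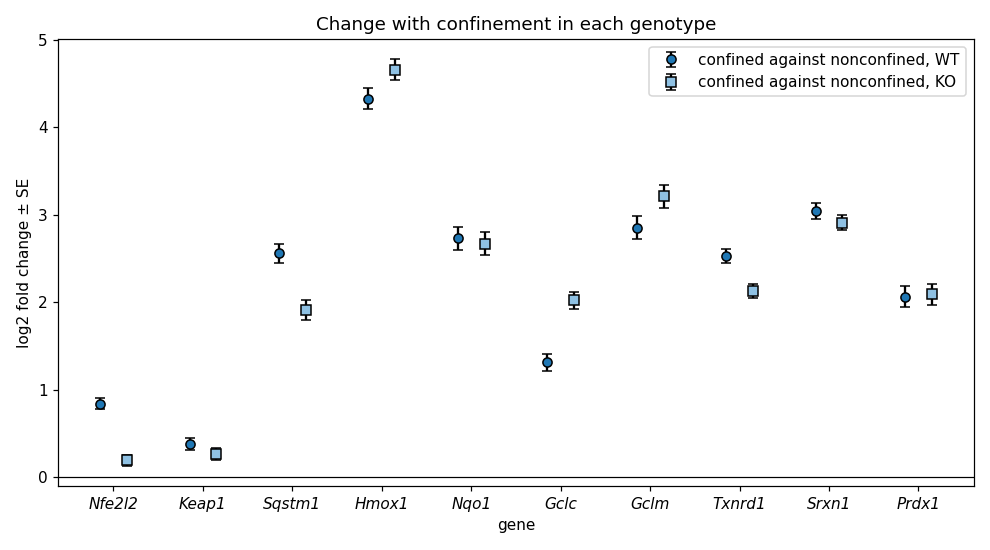
Log2 fold change of confined against nonconfined cells for each gene in WT (circles) and KO (squares), with bars for the SE. Hmox1 is at the top in both genotypes (4.33 and 4.66), and the pairs of Nfe2l2, Sqstm1, Gclc and Txnrd1 are the 4 whose difference passed the test.

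The effect of genotype was then read within each treatment, so that shape and handling are alike on both sides, although donor sex is not. In nonconfined cells 1 of 10 genes was called higher in KO, against 4.78% of all tested genes: Srxn1, with a log2 fold change of 0.33 ± 0.09 (SE) and adjusted p = 0.0195 from limma. That call was lost without any 1 of 5 of the 6 libraries compared (nonconfined WT replicates 1, 2 and 3 and nonconfined KO replicates 1 and 3), with log2 fold changes between 0.32 and 0.35. In a fit of only these 2 conditions 5 of 10 genes passed, where all tested genes gave 848 higher and 532 lower. In the fit of all conditions the other genes ran from -0.12 for Nfe2l2 to 0.39 for Nqo1. There limma called none of the 10 lower, with 4 of 10 at an unadjusted p under 0.05, each of them higher. edgeR and DESeq2 also called none lower.

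In confined cells the genotypes parted in both directions. Of the 10 genes, 4 were called higher in KO, against 18.8% of all tested genes, and 4 lower, against 20.6%. The higher ones were Hmox1, Nqo1, Gclc and Gclm, the enzymes of heme breakdown, quinone reduction and glutathione synthesis, and the lower ones were Nfe2l2, Sqstm1, Txnrd1 and Keap1. Nfe2l2 had a mean of 6718 normalized counts in WT and 3953 in KO libraries, with a log2 fold change of -0.77 ± 0.06 (SE) and adjusted p = 2.26e-09 from limma. For the other lower ones, Sqstm1 gave a log2 fold change of -0.41 ± 0.11 (SE) and adjusted p = 0.00520 from limma, Txnrd1 a log2 fold change of -0.32 ± 0.08 (SE) and adjusted p = 0.00395 from limma and Keap1 a log2 fold change of -0.19 ± 0.07 (SE) and adjusted p = 0.0372 from limma. Of the higher ones, Hmox1 gave a log2 fold change of 0.62 ± 0.12 (SE) and adjusted p = 0.000350 from limma, Gclc a log2 fold change of 0.64 ± 0.10 (SE) and adjusted p = 3.00e-05 from limma and Gclm a log2 fold change of 0.61 ± 0.13 (SE) and adjusted p = 0.000769 from limma. Nqo1 was near the threshold, with a log2 fold change of 0.33 ± 0.13 (SE) and adjusted p = 0.0466 from limma, and its call was lost without any 1 of the 6 libraries compared (adjusted p between 0.0733 and 0.113 from limma). Keap1 lost its call without confined WT replicate 2 or 3 or confined KO replicate 2 or 3, with log2 fold changes of -0.18, -0.18, -0.19 and -0.14. With the same total per library neither Txnrd1 (-0.16, adjusted p = 0.0819 from limma) nor Keap1 (-0.03, adjusted p = 0.726 from limma) passed, and Nqo1 did not pass with edgeR. Srxn1 (0.21 ± 0.09) and Prdx1 (0.22 ± 0.12) did not pass, with adjusted p = 0.0600 and 0.138 from limma, although their libraries did not overlap. Both were called higher with the same total per library (0.37 and 0.38, adjusted p = 0.000731 and 0.00705 from limma) and in a fit of only these conditions (adjusted p = 0.000903 and 0.00127 from limma). The count was thus 6 higher and 2 lower with the same total, where all tested genes gave 6002 higher and 2599 lower.

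LPS, a ligand of TLR4 that matures DCs, was compared with the nonconfined state over both labels together. All 10 of 10 genes rose, against 37.2% of all tested genes called higher, and 8 of 10 passed a log2 fold change of 1 as well, against 15.6%. The same 10 of 10 and 10 of 10 were called with the libraries labelled WT alone and those labelled KO alone. Of all 17875 tested genes 5965 and 5972 were called higher with these labels, in this order. Leaving out the 3 libraries whose Ddx3y goes against their label, an alternative chosen after the values were seen, leaves 1 library labelled WT. No count is given for it here. Over both labels the median log2 fold change of the 10 genes was 2.29, beside 0.02 over all tested genes. The nonconfined libraries are the same as those compared with confined cells. Nfe2l2 had 6088, 7128 and 6994 normalized counts in the libraries labelled WT and 7374, 6618 and 6553 in those labelled KO, and Keap1 had 1434, 1402 and 1488 and 1343, 1362 and 1346. Both regulators were above each nonconfined library. They gave a log2 fold change of 0.91 ± 0.04 (SE) and adjusted p = 5.85e-14 from limma for Nfe2l2 and a log2 fold change of 0.93 ± 0.05 (SE) and adjusted p = 2.13e-13 from limma for Keap1. Hmox1 had 61956, 39652 and 52169 in the libraries labelled WT and 41388, 63239.9 and 53744 in those labelled KO. Sqstm1 had 94401, 63261 and 78274 and 63295, 93097 and 80892. These libraries were spread more widely than the libraries of other conditions, and in both labels, yet none overlapped with the nonconfined ones. Hmox1 gave a log2 fold change of 3.85 ± 0.09 (SE) and adjusted p = 5.38e-20 from limma, and Sqstm1 a log2 fold change of 2.94 ± 0.08 (SE) and adjusted p = 9.21e-19 from limma. Txnrd1 (2.81 ± 0.06), Srxn1 (2.66 ± 0.06), Nqo1 (2.31 ± 0.09), Prdx1 (2.27 ± 0.08), Gclm (2.15 ± 0.09) and Gclc (1.09 ± 0.07) followed, in this order of log2 fold change with its SE.

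Between the libraries labelled KO and WT after LPS, limma called 0 of the 10 genes and 0.00% of all tested genes in either direction. An unadjusted p under 0.05 was found for 0 of the 10 genes and for 890 of all 17875, and edgeR and DESeq2 also called 0 of the 10 and 0 of all genes. With the labels in doubt, this count cannot be read as an effect of genotype. Without the 3 libraries whose Ddx3y goes against their label, which leaves 1 library labelled WT and 2 labelled KO and takes the single one to vary like the rest, 6 of 10 were called higher in those labelled KO, beside 320 higher and 215 lower of all tested genes. The values that follow show that this choice leaves a library of the lowest pair against one of the highest, so nothing is read from that count. Across the LPS-treated libraries the target genes kept a common order. Gclm had 9145, 5934 and 8132 in the libraries labelled WT and 5767, 9484 and 7919.5 in those labelled KO, Txnrd1 had 92108, 70165 and 80555 and 68127, 90997 and 82319, and Prdx1 had 106528, 73209 and 89835 and 69853, 107985 and 92509. Replicate 1 labelled WT and replicate 2 labelled KO were the highest pair for each of these genes as for Hmox1 and Sqstm1, replicate 3 of either label lay between, and replicate 2 labelled WT and replicate 1 labelled KO were the lowest pair. Ddx3y ran in the same order of pairs, and Nqo1 (1388 to 2204), Gclc (2003 to 2784) and Srxn1 (16559 to 22573) had their lowest and highest libraries in the same pairs. Nfe2l2 was highest in the pair where those genes were lowest, and Keap1 kept no such order.

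**Figure D3:**
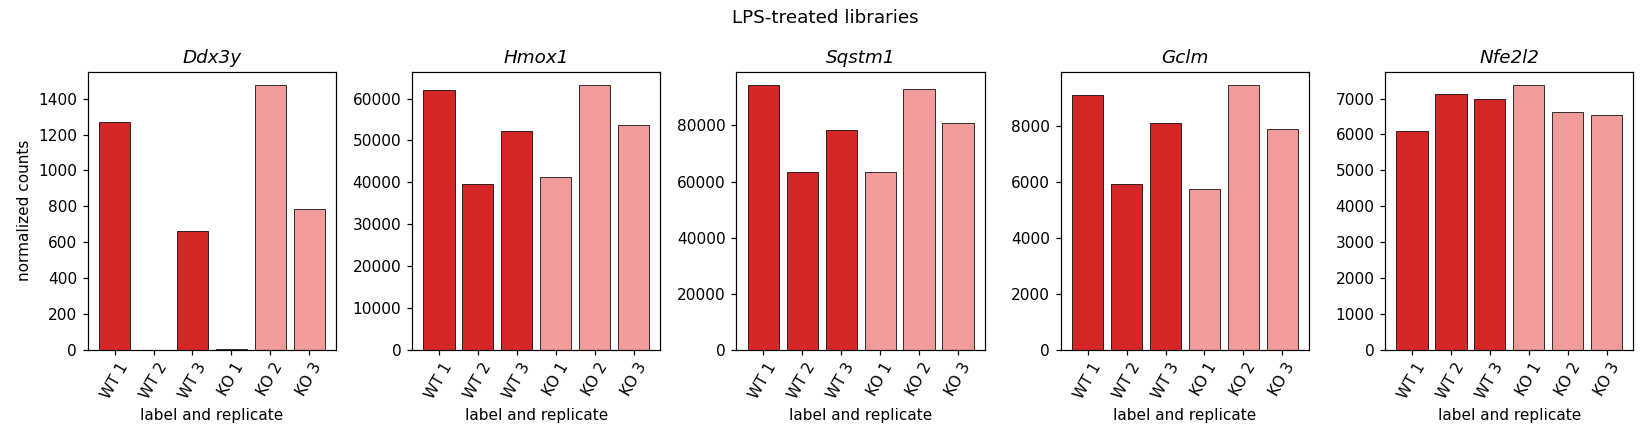
Normalized counts of Ddx3y and 4 of the 10 genes in the 6 LPS-treated libraries, 1 bar per library on a linear axis from 0, named by genotype label and replicate. WT 1 and KO 2 are the highest pair and WT 2 and KO 1 the lowest pair for Ddx3y, Hmox1, Sqstm1 and Gclm, with Hmox1 from 39652 to 63239.9, whereas Nfe2l2 is highest in WT 2 and KO 1.

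Confined cells were set against the 6 LPS-treated libraries to compare the sizes of the responses, although 4 h and the next day are different times. In confined WT cells 4 of 10 genes were higher than after LPS, against 24.5% of all tested genes, and 4 of 10 lower, against 29.8%. In confined KO cells 5 of 10 were higher, against 30.3%, and 4 of 10 lower, against 32.5%. Hmox1, Gclc, Gclm and Srxn1 were the higher ones in WT, led by Gclm with a log2 fold change of 0.57 ± 0.11 (SE) and adjusted p = 0.000217 from limma, and in KO Nqo1 joined them. In confined KO cells Gclm gave a log2 fold change of 1.18 ± 0.11 (SE) and adjusted p = 8.17e-09 from limma and Hmox1 a log2 fold change of 0.96 ± 0.11 (SE) and adjusted p = 7.46e-08 from limma. Txnrd1, Prdx1, Sqstm1 and Keap1 were lower in confined WT than after LPS, with log2 fold changes of -0.31, -0.31, -0.50 and -0.52, and the first 2 of these calls were lost with the same total per library (-0.03 and -0.02). Nfe2l2 did not pass in confined WT (-0.01 ± 0.05, adjusted p = 0.857 from limma) but was called higher with the same total per library (0.28, adjusted p = 0.000355 from limma). In confined KO it was lower than after LPS, with a log2 fold change of -0.78 ± 0.05 (SE) and adjusted p = 4.96e-11 from limma. Of the calls in WT, Gclc was lost without confined WT replicate 1 or 3 (log2 fold changes of 0.22 and 0.26), Prdx1 without confined WT replicate 3 (-0.29), and Srxn1 without confined WT replicate 1 or 3, LPS replicate 2 labelled WT or LPS replicate 1 labelled KO (0.18, 0.21, 0.15 and 0.15). Nqo1 passed without LPS replicate 1 labelled WT (0.30) or replicate 2 labelled KO (0.31) but not with them (0.23 ± 0.11, adjusted p = 0.0856 from limma). It also passed with the same total per library (0.52, adjusted p = 0.000241 from limma), with TMM scaling (0.30, adjusted p = 0.0268 from limma), with edgeR (0.28, adjusted p = 0.0308) and with DESeq2 (0.25, adjusted p = 0.0462). Counts for confined WT were 6 higher and 2 lower with the same total, and 1 and 3 in a fit of only these conditions. All tested genes gave 8087 higher and 2669 lower with the same total, and 3984 and 5217 in that fit. For confined KO they were 6 higher and 4 lower with the same total, where all tested genes gave 10189 higher and 2965 lower. Prdx1 there turned from -0.09 ± 0.10, which did not pass (adjusted p = 0.464 from limma), to 0.36 and passed (adjusted p = 0.00221 from limma). Leaving out the 3 doubted libraries leaves 1 LPS library labelled WT, so the counts of that fit are not given here.

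Levels of different genes can be compared only roughly per kilobase of the canonical transcript, whose length need not match the gene model used for counting. By the deposited positions Gclm ends at 122060864, beside 122065061 in the GENCODE annotation, and Srxn1 at 151953295, beside 151957687. Values per kilobase of such genes may be too low, so small differences between genes are not read. In nonconfined WT cells the mean per kilobase ran from 117 for Nqo1 and 234 for Keap1 up to 3352 for Txnrd1 and 6412 for Prdx1, in normalized counts per kilobase. Gclm stood at 246 by its canonical length. Hmox1 stood at 2037 per kilobase in nonconfined WT, below Prdx1, and at 41021 in confined WT, above Prdx1 at 26784. In confined KO cells Hmox1 reached 62967 per kilobase, beside 31282 for Prdx1 and 267 for Keap1. Ordered over the conditions, Hmox1, Nqo1, Gclc, Gclm and Srxn1 were highest in confined KO cells, and Sqstm1, Txnrd1 and Keap1 in LPS-treated cells, with no overlap of the top condition or pair of LPS conditions with the next. For Prdx1 the confined KO and LPS-treated libraries overlapped, and for Nfe2l2 the confined WT and LPS-treated libraries did. Gene models overlap Nfe2l2, Gclc, Gclm, Txnrd1, Srxn1, Prdx1, Sqstm1 and Keap1 in the GENCODE annotation, on the same strand Eid3 within Txnrd1, a pseudogene, Gm6061, within Gclm, and for Nfe2l2 a small nuclear RNA gene, Gm56200, and a long noncoding RNA gene, Gm75256, and Prdx1 has a pseudogene elsewhere, Prdx1-ps. The library kits keep the strand of the RNA by the labels and the methods of the study, but whether counting used it, and how reads shared by such genes were assigned, is not given in the sources used here. The share of such reads in these values was therefore not tested.

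Further genes of the pathway were read from lists, whose counts are to be set against those of all 17875 tested genes. These had 28.2% higher and 28.4% lower with confinement in WT and 22.8% higher and 23.4% lower in KO. For KO against WT they had 4.78% higher and 4.11% lower in nonconfined and 18.8% higher and 20.6% lower in confined cells. LPS gave 37.2% higher and 34.3% lower. Of the regulators and partners of NRF2 (related factors, BACH repressors, small MAF proteins, parts of NRF2's ubiquitin ligases and the kinase genes Gsk3b and Fyn), 9 of 13 rose and 1 fell with confinement in WT, and 7 rose and 2 fell in KO. The named ones were Maff (1.78 ± 0.06) and Mafk (1.02 ± 0.07) higher and Nfe2 (-0.62 ± 0.07) lower in WT, and Bach1 (1.11 ± 0.09) and Maff (0.85 ± 0.06) higher and Fyn (-0.16 ± 0.06) lower in KO, as log2 fold changes with their SE. Maff and Mafk encode small MAF partners of NRF2, and Bach1 a heme-sensitive repressor that competes for the same elements. The call of Fyn, a kinase reported to act on NRF2 export, was lost without nonconfined KO replicate 2 or 3 or confined KO replicate 2 or 3 (log2 fold changes of -0.14, -0.16, -0.17 and -0.14). In confined cells 3 of the 13 were higher in KO, led by Nfe2 (0.68 ± 0.07) and Bach1 (0.40 ± 0.09), and 5 lower, led by Fyn (-0.85 ± 0.06) and Nfe2l1 (-0.68 ± 0.04), which became 5 and 5 with the same total per library. In nonconfined cells 2 were higher in KO, Maff (0.28 ± 0.06) and Mafg (0.22 ± 0.06). The row of Mafg is shared with Sirt7, so its values and calls, here and in the counts of this list, cannot be given to Mafg alone. The call of Mafg, another small MAF gene, was lost with a replicate block (0.22), without a filter (0.22) and without nonconfined WT replicate 2 or 3 or nonconfined KO replicate 1 or 3 (0.17, 0.23, 0.20 and 0.22). With LPS 9 rose, led by Maff (2.79 ± 0.04) and Nfe2l1 (1.12 ± 0.03), and 2 fell, Nfe2 (-0.37 ± 0.05) and, at a low mean of 15.1 normalized counts, Nfe2l3 (-2.60 ± 0.46), but with the same total per library 3 rose and 7 fell.

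Of the 27 tested of 29 other reported NRF2 targets (Gsta4 and Gpx2 did not pass the filter), 21 rose and 3 fell with confinement in WT cells, with a median log2 fold change of 0.76, beside -0.01 over all tested genes. In KO cells 21 rose and 1 fell, with a median of 1.03, beside 0.01. Slc7a11, the cystine transporter that feeds glutathione synthesis, and Me1, an NADPH-making malic enzyme, led both: Slc7a11 (3.70 ± 0.13) and Me1 (2.29 ± 0.15) in WT, Slc7a11 (3.08 ± 0.13) and Me1 (2.41 ± 0.15) in KO. The largest decreases were those of Gstp1 (-0.37 ± 0.06) and Cbr1 (-0.31 ± 0.09) in WT and Abcc4 (-0.47 ± 0.07) in KO. In confined cells 15 of 27 were higher in KO than in WT and 3 lower, with Mgst1 (0.97 ± 0.10) and Gstm1 (0.90 ± 0.11) against Abcc4 (-0.83 ± 0.07) and Fth1 (-0.27 ± 0.07). Mgst1 and Gstm1 encode glutathione transferases. The call of Fth1, the ferritin heavy chain gene, was lost with the same total per library (-0.12). The same pair led in nonconfined cells, with Mgst1 (0.62 ± 0.10) and Gstm1 (0.60 ± 0.11), where 9 were higher and 1 lower, and the lower one, Ephx1 (-0.28 ± 0.08), lost its call without any 1 of the 6 libraries compared (log2 fold changes from -0.30 to -0.24). By the deposited scaling LPS raised 19 and lowered 7 of the 27, with Slc7a11 (3.98 ± 0.09) and Me1 (3.05 ± 0.10) up and Ephx1 (-1.20 ± 0.05) and Osgin1 (-0.81 ± 0.12) down. The median of the 27 with LPS was 0.52. The same total per library moved the median of all tested genes from 0.02 to -0.47, so smaller increases depend on the scaling.

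A further list held 21 antioxidant enzymes not placed among the 10 genes or the other targets above, which does not mean that NRF2 leaves them alone. Of these, 8 rose with confinement and 5 fell in WT, and 10 rose and 7 fell in KO, with medians of -0.04 and 0.14. With the same total per library 5 rose and 11 fell in WT and 8 rose and 8 fell in KO. Sod2, the mitochondrial superoxide dismutase and a known NF-kB target, and Prdx6 led the increases in WT, with Sod2 (2.40 ± 0.06) and Prdx6 (0.86 ± 0.04), and the decreases were led by Sesn1 (-1.33 ± 0.14) and Gpx1 (-0.60 ± 0.05). In KO the named genes were Prdx6 (0.91 ± 0.04) and Sod2 (0.67 ± 0.06) higher and Gpx1 (-0.56 ± 0.05) and Sesn1 (-0.44 ± 0.14) lower, the call of Sesn1 being lost without nonconfined KO replicate 2 (-0.38) or confined KO replicate 3 (-0.38). Confined KO cells had lower Sod2 (-1.52 ± 0.06) and Prdx5 (-0.54 ± 0.06) and higher Msra (0.75 ± 0.09) and Sesn1 (0.70 ± 0.14) than confined WT cells, with 4 of 21 called higher and 5 lower, or 10 and 2 with the same total per library. In nonconfined cells 4 of 21 were higher in KO, led by Msra (0.50 ± 0.09) and Msrb1 (0.24 ± 0.04), and 1 lower, Gpx3 (-0.28 ± 0.07). The call of Gpx3, an extracellular glutathione peroxidase, was lost without nonconfined WT replicate 1 or 2 or nonconfined KO replicate 3 (-0.26, -0.26 and -0.26). After LPS 6 rose and 8 fell by the deposited scaling, among them Sod2 (3.48 ± 0.04) and Prdx5 (1.71 ± 0.04) up and Sesn1 (-1.65 ± 0.10) and Sesn3 (-1.06 ± 0.09) down. With the same total per library the median of all tested genes moved from 0.02 to -0.47 with LPS. Smaller changes in this list therefore depend on the scaling.

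The phagocyte NADPH oxidase, a source of superoxide, is a complex of 6 listed genes. By the deposited scaling 5 of these rose with confinement in WT and 4 in KO, where 1 fell. With the same total per library the median of all tested genes moved from -0.01 to -0.23 in WT, so smaller increases depend on the scaling. Named in WT were Cybb (0.64 ± 0.08) and Ncf1 (0.41 ± 0.04), the former the catalytic subunit. In KO Cyba (0.21 ± 0.06) was higher and Rac2 (-0.20 ± 0.04) lower, and the call of Cyba was lost without nonconfined KO replicate 2 (0.16). In confined cells KO stood below WT for Ncf1 (-0.53 ± 0.04) and Cybb (-0.50 ± 0.08). Cyba was called higher there (0.16 ± 0.06), but not with TMM scaling, edgeR or DESeq2, and it lost its call without confined WT replicate 2 (0.14) or 3 (0.16) or confined KO replicate 2 (0.14) or 3 (0.16). In nonconfined cells 1 of 6 was higher in KO, Cyba (0.23 ± 0.06), a call lost without a filter and in a fit of only these conditions (0.23 and 0.23). It was also lost without nonconfined WT replicate 2 or 3 or nonconfined KO replicate 1 or 3 (0.20, 0.21, 0.19 and 0.22). LPS raised 6 of 6, with Cybb (2.21 ± 0.06) and Ncf1 (1.55 ± 0.03).

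All tested genes had 24.5% higher and 29.8% lower for confined WT against LPS and 30.3% higher and 32.5% lower for confined KO. Against LPS, the regulators gave 5 higher and 6 lower of 13 tested for confined WT and 2 higher and 5 lower of 13 tested for confined KO, the other NRF2 targets 8 higher and 11 lower of 27 tested and 15 higher and 9 lower of 27 tested, the other antioxidant enzymes 6 higher and 4 lower of 21 tested and 9 higher and 6 lower of 21 tested, and the oxidase 1 higher and 5 lower of 6 tested and 1 higher and 4 lower of 6 tested. With the same total per library the balance turned for the regulators, to 7 higher and 1 lower in WT and 11 and 2 in KO, and for the other targets in WT, to 17 and 5, and with TMM scaling confined WT had 5 and 5 regulators and 9 and 8 other targets. The counts of the other enzymes and of the oxidase are by the deposited scaling. The same total moved the median of all tested genes from -0.01 to 0.27 for confined WT and from 0.03 to 0.47 for confined KO. Small differences in these 2 lists therefore depend on the scaling. As log2 fold changes with their SE, of the regulators in confined WT Bach1 (0.83 ± 0.08) and Fyn (0.61 ± 0.05) were higher than after LPS and Maff (-1.14 ± 0.05) and Nfe2 (-0.34 ± 0.06) lower, the call of Nfe2 being lost with the same total per library (-0.06). In confined KO Bach1 (1.24 ± 0.08) and Nfe2 (0.34 ± 0.06) were higher and Maff (-1.80 ± 0.05) and Nfe2l1 (-0.78 ± 0.04) lower. Of the other targets, Osgin1 (1.39 ± 0.14) and Ephx1 (1.17 ± 0.07) were higher and Me1 (-0.87 ± 0.13) and Gsr (-0.68 ± 0.05) lower in WT. In KO Osgin1 (1.93 ± 0.14) and Slc48a1 (1.05 ± 0.10) were higher and Slc7a11 (-0.70 ± 0.11) and Txn1 (-0.54 ± 0.06) lower, the call of Txn1, the thioredoxin gene, being lost with the same total per library (-0.10). Osgin1 is an NRF2 target and Slc48a1 encodes a heme transporter. Of the other enzymes, Sesn3 (0.78 ± 0.11) and Gpx4 (0.52 ± 0.06) were higher and Sod2 (-1.18 ± 0.05) and Prdx5 (-0.90 ± 0.05) lower in WT, and Sesn1 (1.12 ± 0.12) and Msra (0.77 ± 0.08) higher and Sod2 (-2.70 ± 0.05) and Prdx5 (-1.44 ± 0.05) lower in KO. Of the oxidase, Cybb (-1.51 ± 0.07) and Ncf1 (-1.07 ± 0.04) were lower in WT and Cybb (-2.01 ± 0.07) and Ncf1 (-1.60 ± 0.04) in KO. The test of the difference between genotypes in the change with confinement had 10.2% higher and 15.6% lower over all tested genes and called 1 regulator higher and 5 lower, 5 other targets higher and 3 lower, 2 other enzymes higher and 5 lower, and 2 oxidase genes lower, and with the same total per library 5 and 4, 14 and 2, 8 and 2 and, for the oxidase, 1 and 1. With TMM scaling the other targets had 3 and 3.

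DC markers were lower with confinement in 5 of 7 cases in WT and 7 of 7 in KO, where 28.4% and 23.4% of all tested genes were called lower. Cells other than DCs that such cultures can hold were followed by their markers. By the methods of the study, adhesion was used to separate the DCs. Only weakly attached cells were harvested, which is meant to leave out floating granulocytes and firmly attached macrophages. The 8 neutrophil markers, led by S100a9, summed to 224188, 229535 and 227719.7 in nonconfined WT, 351928, 315594 and 340235 in nonconfined KO, 143231, 136705 and 134339 in confined WT and 313593, 328153 and 312292 in confined KO libraries. With confinement 8 of 8 were called lower in WT and 4 of 8 in KO, and among confined cells 8 of 8 were called higher in KO than in WT, where 18.8% of all tested genes were. Eosinophil markers, 4 led by Prg2, summed to 28181, 27896 and 27812 in nonconfined WT, 67608, 63232 and 65185 in nonconfined KO, 7418, 6942 and 6883 in confined WT and 16396, 15911 and 16836 in confined KO libraries. Their sums were lower with confinement and higher in KO, although Siglecf was lower in KO (-0.57 in nonconfined and -0.39 in confined cells, the latter not called with the same total per library), and the sums of the 5 mast cell and basophil markers, led by Cpa3, likewise, with 6129, 6474 and 6285 and 9662, 9234 and 9153 in nonconfined WT and KO and 2974, 2839 and 2890.2 and 4976, 4897 and 5049 in confined WT and KO libraries. Among the latter Kit went against the sums and was called higher with confinement in WT (0.37, a call lost with the same total per library, at 0.14) and in KO (0.80). Macrophage markers, 7 led by Cd14, summed to 16992, 16643 and 17099 in nonconfined WT, 18488, 19300.1 and 19187 in nonconfined KO, 149138, 141571 and 141599 in confined WT and 28442, 26881 and 28012 in confined KO libraries, but Cd14 alone rose in WT and KO, at 6.11 and 3.05, while 4 and 5 of the 7 fell. The part of these cell types in the values of the 10 genes was not tested.

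After LPS the DC markers summed to 704899.6, 591189.7 and 634479 in the libraries labelled WT and 590919.5, 690663 and 651704 in those labelled KO, with 6 of 7 higher than in nonconfined cells, beside 37.2% higher and 34.3% lower of all tested genes. The DC markers had 1 higher and 5 lower with the same total per library. The other counts here are by the deposited scaling. Among the neutrophil markers the largest increase was 0.37, and Cd74 turned from 0.30 to -0.20 with the same total. The neutrophil markers summed to 290068, 270615 and 272849.6 and 257251, 292538 and 274664 (3 of 8 higher and 4 lower), the macrophage markers to 104560.4, 114176 and 103981 and 109210.2, 100113 and 106259 (3 of 7 higher and 4 lower), and the mast cell and basophil markers to 5976, 5768 and 5897 and 5667, 6300.0 and 6197 (5 of 5 lower). The eosinophil markers summed to 39729.6, 23288 and 31432 in the libraries labelled WT and 23085, 39326 and 32102 in those labelled KO (4 of 4 lower). The sums of the DC, neutrophil and eosinophil markers thus had their highest and lowest pairs in the same libraries as Hmox1 and Ddx3y. Replicate 1 labelled WT and replicate 2 labelled KO were the highest, and replicate 2 labelled WT and replicate 1 labelled KO the lowest. Single markers did not all follow. Elane, Mpo and Siglecf had their highest pair where these sums were lowest, and S100a8 and Itgax kept no such order. The sums of the macrophage and of the mast cell and basophil markers had other highest or lowest pairs. Their part in the order of the 10 genes was not tested.

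The totals of the normalized counts differed between conditions, from 33981771 to 34304766 in nonconfined WT and 34550877 to 35275710.3 in nonconfined KO to 39247554 to 40632662 in confined WT, 35218119.9 to 36333185 in confined KO, 48038086 to 49506497 in LPS libraries labelled WT and 47902483 to 49394006 in those labelled KO. Bringing all libraries to the same total moved the median log2 fold change of all tested genes from -0.01 to -0.23 for confinement in WT, from 0.01 to -0.03 for confinement in KO, from 0.02 to -0.47 for LPS, from 0.05 to 0.24 for the difference between genotypes, and from 0.04 to 0.19 for genotype in confined cells. It moved it from -0.01 to 0.27 for confined WT and from 0.03 to 0.47 for confined KO against LPS. The balance of all calls moved as well. With the same total 18016 genes passed the filter, in place of 17875, so the set of tested genes changed along with the scaling. For confinement in WT there were 5038 higher and 5075 lower genes, and 3575 higher and 7403 lower with the same total. For confinement in KO there were 4081 higher and 4190 lower genes, and 3717 higher and 4640 lower with the same total. For the difference between genotypes in that change there were 1823 higher and 2796 lower genes, and 4740 higher and 1967 lower with the same total. For the 10 genes, 9 of 10 were still called higher with confinement in WT, 9 of 10 in KO and 10 of 10 with LPS. For genotype in nonconfined cells all tested genes split into 854 higher and 734 lower, and into 756 higher and 1042 lower with the same total. For genotype in confined cells all tested genes split into 3356 higher and 3682 lower, and into 6002 higher and 2599 lower with the same total. For LPS all tested genes split into 6648 higher and 6126 lower, and into 3606 higher and 10246 lower with the same total. Confined WT against LPS had 4383 higher and 5318 lower, and 8087 higher and 2669 lower with the same total. Confined KO against LPS had 5422 higher and 5816 lower, and 10189 higher and 2965 lower with the same total.

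The 10 genes were called higher with confinement in both genotypes and with LPS, and their promoters were searched for the core of the antioxidant response element, TGACNNNGC, on both strands (GCNNNGTCA on the other). RefSeq promoter windows of GRCm38.p6, from 250 bases before to 50 after a gene's start, matched 8 of the 10 by symbol, with Hmox1 and Gclc without an entry, and Txnrd1 has 3 windows, of which 1 holds the core. The core was present in 5 of 8, or 62.5%, beside 14% of all genes and 12.4% of all promoters of this length. The 10 genes were taken as members of the NRF2 pathway, so this share follows from their choice and says nothing about these libraries. The core was in 9 of 25 other targets, 3 of 11 regulators, 2 of 18 other antioxidant enzymes and 0 of 3 oxidase genes with an entry. Windows around the matches are shown, since they hold the searched letters and otherwise differ between the genes, 5′ to 3′ on the minus strand of the chromosome with the core in capitals, at chr2:75704885-75704913 for Nfe2l2, chr2:152105542-152105570 for Srxn1, chr3:122245413-122245441 for Gclm, chr4:116685456-116685484 for Prdx1, chr10:82859104-82859132 for Txnrd1.
Nfe2l2: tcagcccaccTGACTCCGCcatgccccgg
Srxn1: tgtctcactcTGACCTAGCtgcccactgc
Gclm: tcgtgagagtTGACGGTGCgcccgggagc
Prdx1: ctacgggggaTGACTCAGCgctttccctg
Txnrd1: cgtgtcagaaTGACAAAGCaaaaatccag
The core of Prdx1 also holds the AP-1 letters TGACTCA. A match describes the letters and is not evidence of binding, and its absence from the windows of Nqo1, Keap1 and Sqstm1 says only that these letters are not there.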

How the data were processed

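RNA was sequenced from 18 libraries of mouse bone marrow-derived DCs, grouped by their labels. The authors deposited a signal per gene, namely read numbers per gene scaled by size factors of DESeq2; the submitters' processing notes name STAR 2.7.5a, featureCounts 1.5.0, R 3.5.3 and GRCm39. Multiplying by 1 factor per library gave whole reads for 100% of values (tolerance 0.001). Here log2(value + 1) was fitted with limma 3.58.1 in R 4.3.3 (6 condition means, eBayes with trend, two-sided) for the 17875 genes that reached 10 normalized counts in 3 or more libraries, with Benjamini-Hochberg adjustment per comparison. A fold change on this scale understates changes of low genes. Called genes have an adjusted p under 0.05. All 10 genes are named. From the other pathway lists the 2 largest increases and 2 largest decreases among called genes are named in each comparison of conditions, if their mean reached 100 normalized counts and the libraries compared did not overlap. The values of 1 gene that meets this rule are not reported here. Marker lists are given by counts, sums and their most abundant gene, and Siglecf, Kit, Elane, Mpo, S100a8, Itgax and Nfe2l3 were named after their values were seen. Members and lists were chosen with earlier results of these data known. Alternatives were pseudocounts, filters, scaling to the same total and by TMM, edgeR 4.0.16 and DESeq2 1.42.0 run on whole reads, models holding nothing but the conditions under comparison, a replicate block, LPS labels taken alone, omission of single libraries and, chosen after seeing the data, omission of the 3 LPS libraries in doubt. The fits were tested on simulated data. Gene positions are those of the deposited table, on GRCm39, and promoters of RefSeq are on GRCm38.p6. The protocol text of the labels names LPS for each library; groups follow the titles and treatment entries.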

Additional observations from a re-analysis of the deposited data

Results flagged for a closer look

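In 4 of the 10 genes the change with confinement differed between KO and WT cells by the test of the difference itself, 1 of them higher, against 10.2% of all tested genes, and 3 lower, against 15.6%. Nfe2l2 (-0.65 ± 0.09 on the log2 scale, KO minus WT) and Sqstm1 (-0.65 ± 0.16) rose less in KO, with adjusted p = 8.25e-06 and 0.00341 from limma. Txnrd1 also rose less in KO (-0.40 ± 0.12, adjusted p = 0.0150 from limma), and Gclc rose more (0.71 ± 0.14, adjusted p = 0.000706 from limma). With the same total per library Txnrd1 lost its call (-0.21, adjusted p = 0.134 from limma), and Hmox1 (0.51) and Gclm (0.54) gained one, with adjusted p = 0.0173 and 0.0204 from limma. Confined KO libraries held less Nfe2l2 RNA but more Gclc RNA than confined WT libraries, in 3 of 3 libraries each. Marker sums of neutrophils, eosinophils and mast cells and basophils were also higher in each confined KO than in each confined WT library. Macrophage sums were lower, led by Cd14 (-3.00). Of the 7 macrophage markers, however, 2 were called lower in confined KO and 2 higher, with a median of 0.20. All tested genes had 20.6% lower and 18.8% higher. In the same test of the difference 5 of 7 DC markers were called lower (2 with the same total per library), 7 of 8 neutrophil markers and 3 of 5 mast cell and basophil markers higher, and 2 of 7 macrophage markers lower. For eosinophil markers 0 of 4 were called in that test, with values from -0.07 to 0.36 on the log2 scale. The part of these cell types was not tested. Genotype and donor sex cannot be told apart here.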

How the results depend on the processing

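Over the alternatives, 10 of 10 genes stayed called higher with confinement in WT and with LPS, except 9 of 10 in WT with the same total per library; in KO the count was 9 with the same total per library and 9 to 10 with a library left out. Of 1720 fold changes of the 10 genes under alternatives, 1611 kept direction and side of the threshold, 47 lost a call, 24 gained one in the same direction, and 38 uncalled values changed sign, 4 of them then passing the threshold; no called value changed sign. With the same total per library the difference between genotypes was called higher for 3 genes in place of 1, more genes were higher and fewer lower for genotype in confined cells (6 in place of 4 and 2 in place of 4) and for confined WT against LPS (6 in place of 4 and 2 in place of 4), and Cd74 with LPS (-0.20) and Camp in confined KO against LPS (0.14) changed sign from 0.30 and -0.31, the scaling itself moving all genes. Fits of only the compared conditions called 3 genes higher for the difference between genotypes, 5 for genotype in nonconfined cells and 1 for confined WT against LPS; DESeq2 called 2 in nonconfined cells, and the LPS libraries labelled WT alone gave 2 higher for confined WT. All tested genes gave 2350, 848 and 3984 higher in these 3 fits, 1080 with DESeq2 and 3864 with that label alone. The main fit took 1 spread per gene over all 18 libraries, LPS-treated ones included. Hmox1 had a standard deviation of 21.8% and 20.8% of its mean in LPS libraries labelled WT and KO. It had 3.68% to 4.08% in the other conditions. For Keap1 these were 2.99% and 0.743%, beside 2.44% to 9.34%. The cause of the changed calls was not tested. With a library left out, genotype in nonconfined cells gave 0 to 1 genes higher and confined WT against LPS 2 to 5. Without the 3 doubted LPS libraries, chosen after seeing the data, 6 genes were higher in LPS libraries labelled KO, a count from which nothing is read, since the choice leaves a library of the lowest pair for these genes against one of the highest.

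The labels share replicate numbers but do not tie them to a mouse or day, and same-numbered libraries did not deviate together in each pair of any comparison (correlations of 0.18, 0.11 and -0.06 for confinement in WT, 0.34, 0.21 and 0.04 for genotype in confined cells). With a replicate block 10 of 10 genes were higher with confinement in WT and 10 in KO, and for genotype in confined cells 3 were higher and 3 lower, Nqo1 and Keap1 missing the threshold. At 33027230 reads or more, counting error is small for these genes, and the number of libraries limits the precision.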

Other observations

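Il12b, a cytokine subunit gene induced by LPS, had 167007, 228621 and 188481 normalized counts in the LPS-treated libraries labelled WT and 217969, 163396 and 184727 in those labelled KO. Its highest pair, replicate 2 labelled WT and replicate 1 labelled KO, was the lowest pair for Hmox1 and Sqstm1, and its lowest pair was their highest. In confined cells Il12b had 27234, 25842 and 26344 in WT and 391, 377 and 299 in KO libraries, while Hmox1 was the higher in KO. Il12b was named after its values were seen, and no relation between these genes was tested.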
